A study of Mus musculus with 30 samples.

Results

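The 9 genes described here code for members of the GDNF family and for trophic receptors: the ligands Gdnf and Nrtn, the co-receptors Gfra1, Gfra2 and Gfra3, the signalling receptor Ret, and the neurotrophin receptors Ngfr, Ntrk2 and Ntrk3. They were chosen by name, out of 45706 genes listed, and were read in the 8 RNA-seq libraries and in the deposited ChIP-seq peak lists within 50 kb of each gene. The study asked which neuronal genes depend on Mnx1 (Hb9), a transcription factor with a homeodomain that motor neurons make.

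GDNF family ligands bind a GFR alpha co-receptor anchored in the membrane, and the complex activates the receptor tyrosine kinase Ret. GDNF prefers Gfra1, neurturin (Nrtn) prefers Gfra2 and artemin prefers Gfra3. Among the neurotrophin receptors, Ntrk2 (TrkB) binds BDNF, Ntrk3 (TrkC) binds NT-3, and Ngfr (p75) binds all neurotrophins with lower selectivity. Motor neurons are known to use both families for survival and for axon growth toward muscle.

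RNA was measured in 4 groups of 2 libraries each. HD and EH are the names of 2 motor neuron lines that both carry the genotype label Mnx1KO, and the labels explain neither name. The other groups were wild-type motor neurons and the wild-type mouse embryonic stem (ES) cells. All 3 motor neuron groups were collected at day 6 of an induction. The agents were 1 µM retinoic acid, 1 µM SAG (which activates Smoothened), 1 µM doxycycline and 5 µM DAPT (which blocks Notch signalling). ChIP-seq lists were given for 5 histone marks in HD and wild-type motor neurons and for Mnx1 in wild-type motor neurons, 1 list per mark and genotype. EH had no ChIP-seq among the files used.

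Total expected counts were 11.2 and 12.4 M in HD, 39.8 and 39.7 M in EH, 13.9 and 13.9 M in wild-type motor neurons and 53.2 and 51.3 M in ES cells. The RNA of Mnx1 itself overlapped between HD and wild-type motor neurons and lay higher in EH. It stood at 377 and 312 TPM in HD (TPM is an expression level scaled for library size and gene length). EH had 446 and 565 TPM, and wild-type motor neurons had 395 and 343 TPM. The RNA level therefore did not check the Mnx1KO label, and the labels do not say how the gene was changed. The 8 motor neuron markers summed to between 1422 and 2330 TPM over the 6 motor neuron libraries and to at most 2.62 TPM in ES cells. The EH libraries stood apart from each other and from the rest, and 7 trophoblast (placental) markers summed to 31.2 to 106 TPM in EH, 487 to 648 TPM in HD, 540 to 603 TPM in wild-type motor neurons and 0.31 to 0.49 TPM in ES cells. In these bulk libraries, fewer cells of a type and less RNA per cell cannot be told apart. The labels do not say whether the libraries of a group came from separate cultures, so errors and p-values measure the spread among these libraries, which may be technical.

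The promoters of Nrtn, Ntrk2, Gfra1 and Ngfr are shown, since among the 5 genes with a promoter entry these 4 differed in RNA in at least 1 comparison between motor neuron groups; Gfra3 and Ntrk3 also differed and had no entry. Each is printed from 250 bases before to 50 bases after the start, 5′ to 3′ on the gene's strand, from RefSeq (GRCm38.p6). Capitals mark TAAT on the printed strand or its reverse complement, the core letters of homeodomain binding sites. The windows lie at chr17:56757499-56757798 (minus strand) for Nrtn, chr13:58806319-58806618 (plus) for Ntrk2, chr19:58455349-58455648 (minus) for Gfra1 and chr11:95587649-95587948 (minus) for Ngfr.
Nrtn promoter: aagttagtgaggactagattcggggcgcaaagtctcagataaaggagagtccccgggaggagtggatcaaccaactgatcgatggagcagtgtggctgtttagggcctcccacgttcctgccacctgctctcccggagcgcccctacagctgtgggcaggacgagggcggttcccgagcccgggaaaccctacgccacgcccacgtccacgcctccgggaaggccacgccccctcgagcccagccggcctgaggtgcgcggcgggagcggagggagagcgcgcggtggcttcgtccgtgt
Ntrk2 promoter: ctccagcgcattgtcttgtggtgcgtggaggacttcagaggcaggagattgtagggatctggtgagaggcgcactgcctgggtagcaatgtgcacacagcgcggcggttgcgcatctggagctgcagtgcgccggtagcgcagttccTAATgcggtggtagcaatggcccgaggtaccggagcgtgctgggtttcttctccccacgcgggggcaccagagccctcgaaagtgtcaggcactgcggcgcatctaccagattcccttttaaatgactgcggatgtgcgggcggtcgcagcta
Gfra1 promoter: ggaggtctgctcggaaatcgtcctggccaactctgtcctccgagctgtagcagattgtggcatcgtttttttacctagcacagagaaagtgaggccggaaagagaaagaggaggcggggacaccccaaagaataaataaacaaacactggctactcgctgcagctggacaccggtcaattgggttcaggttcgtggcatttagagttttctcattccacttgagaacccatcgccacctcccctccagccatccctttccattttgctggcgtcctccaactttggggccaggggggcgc
Ngfr promoter: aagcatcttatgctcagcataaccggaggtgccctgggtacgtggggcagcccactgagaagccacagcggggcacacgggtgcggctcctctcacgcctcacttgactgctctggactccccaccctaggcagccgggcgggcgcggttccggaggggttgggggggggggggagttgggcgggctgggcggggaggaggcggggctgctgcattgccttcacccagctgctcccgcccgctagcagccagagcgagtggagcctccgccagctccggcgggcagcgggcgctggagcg

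Promoter windows were found for 5 of the 9 genes, the other 1 being Gdnf with 2 windows. The sequence TAATTA was in none of these 6 windows, on either strand, against 5.29% of 32851 promoters of the same length. TAAT, which is also part of TAATTA, was found once in the Ntrk2 window and in both Gdnf windows, against 58.0% of all promoters. GC content was 66.7% in the Nrtn window, 61.3% in Ntrk2, 54.0% in Gfra1 and 71.7% in Ngfr, and the median over all promoters was 52.7%.

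Wild-type motor neurons expressed Ret and Ngfr at a high level and the other members at a low one. Ret (chr6:118151748-118197744) averaged 137 ± 2.33 TPM and Ngfr (chr11:95568818-95587698) averaged 161 ± 40.9 TPM (SD, n = 2 each). Gfra3 at 6.95 ± 0.22 TPM, Nrtn at 6.48 ± 1.08 TPM, Gfra1 at 4.37 ± 0.45 TPM, Ntrk2 at 3.47 ± 0.01 TPM and Ntrk3 at 2.03 ± 0.42 TPM formed a middle range. Gdnf at 0.93 ± 0.16 TPM and Gfra2 at 0.79 ± 0.31 TPM were lowest, and their 2 libraries overlapped.

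**Figure D1:**
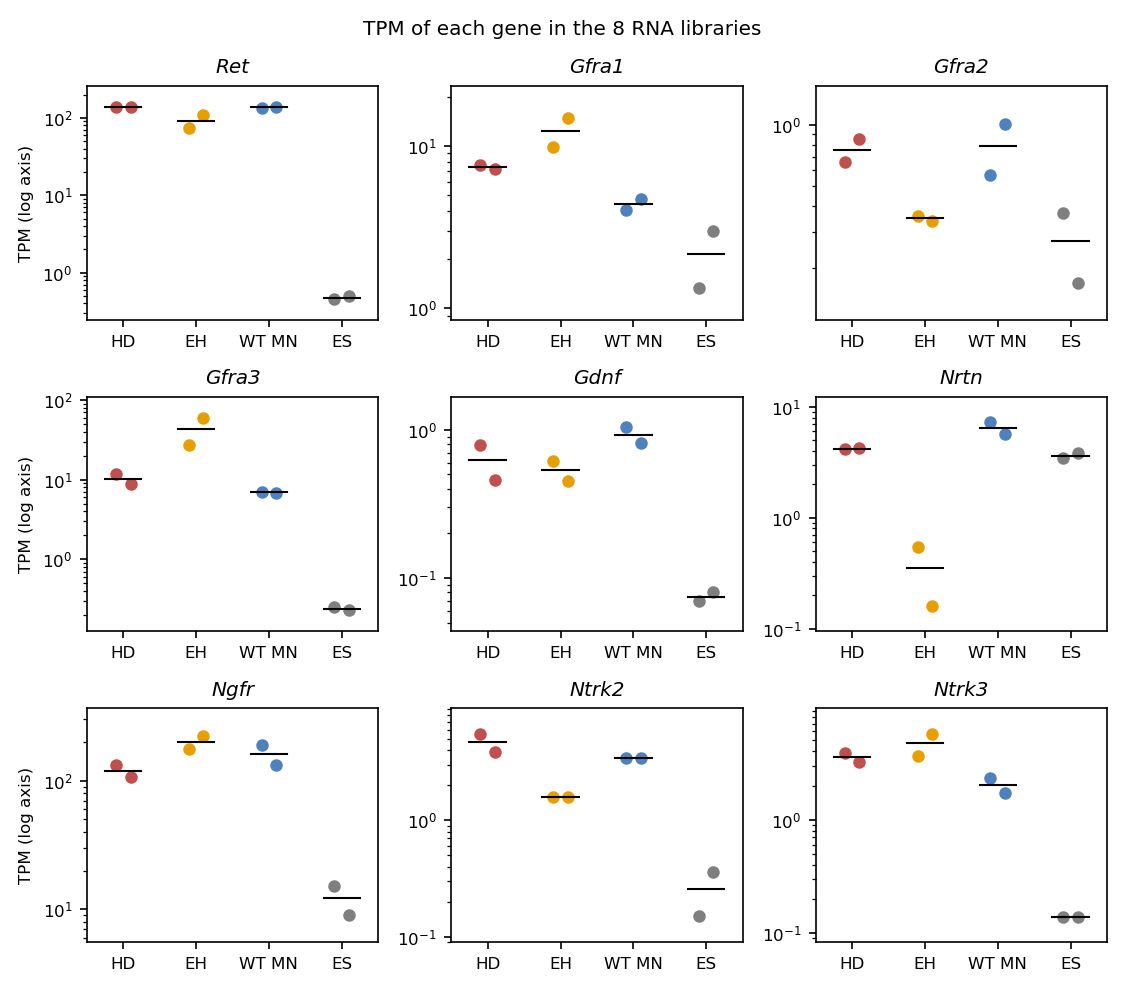
TPM (log axis) of the 9 genes in each of the 8 RNA libraries. Points are libraries and lines are group means, for HD, EH, wild-type motor neurons (WT MN) and ES cells. Gfra3 reached 27.2 and 59.1 TPM in EH, above every other library, while Nrtn lay at 0.54 and 0.16 TPM there, below every other library.

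The induction of motor neurons from ES cells changed 6 of the 9 genes, all upward. This count reads against a background in which 75.3% of the 17770 genes tested were called, 38.8% as higher. Ret, the shared signalling receptor, moved furthest, followed by the artemin co-receptor Gfra3, and Ntrk2, Ntrk3, Ngfr and Gdnf followed.

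Ret had 135 and 138 TPM in wild-type motor neurons, against 0.45 and 0.50 TPM in ES cells, a log2 difference (fold change on the log2 scale) of 7.58 ± 0.23 (SE; adjusted p = 1.19e-07, edgeR's quasi-likelihood test with Benjamini-Hochberg adjustment). Gfra3 had 7.10 and 6.79 TPM in wild-type motor neurons, against 0.25 and 0.23 TPM in ES cells, a log2 difference of 4.22 ± 0.46 (edgeR adjusted p = 5.39e-05). In both genes the motor neuron libraries lay far above the ES cell libraries. Ntrk2 had 3.47 and 3.46 TPM in wild-type motor neurons and 0.15 and 0.36 TPM in ES cells, and rose by 3.33 ± 0.35 on the log2 scale (edgeR adjusted p = 4.5e-05). Ntrk3 rose by 3.19 ± 0.39, with 2.33 and 1.73 TPM in wild-type motor neurons and 0.14 TPM in each ES cell library (edgeR adjusted p = 0.000103).

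Ngfr was already present in ES cells. It had 190 and 132 TPM in wild-type motor neurons and 15.3 and 9.07 TPM in ES cells, a log2 difference of 3.07 ± 0.28 (edgeR adjusted p = 1.83e-05). Gdnf, the ligand of Gfra1, had 1.04 and 0.81 TPM in wild-type motor neurons and 0.07 and 0.08 TPM in ES cells, a log2 difference of 2.87 ± 0.41 (edgeR adjusted p = 0.000295). Gdnf thus rose at a level that stayed near 1 TPM.

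Gfra1, Gfra2 and Nrtn did not pass the test against ES cells. Nrtn had 7.24 and 5.72 TPM in wild-type motor neurons and 3.44 and 3.84 TPM in ES cells, with a fitted difference of 0.19 ± 0.36 (edgeR adjusted p = 0.644). Gfra1 had 4.05 and 4.68 TPM in wild-type motor neurons and 1.33 and 3.01 TPM in ES cells (0.61 ± 0.32, edgeR adjusted p = 0.114). Gfra2, the neurturin co-receptor, had 0.57 and 1.01 TPM in wild-type motor neurons and 0.37 and 0.17 TPM in ES cells (0.89 ± 0.47, edgeR adjusted p = 0.116). A test with limma on log2(TPM + 1) called all 9 genes; there the median of all genes moved by 0.43 on the log2 scale, against 0.02 in the edgeR fit, and higher calls took 9043 of 13068 in place of 6898 of 13382. The motor neuron libraries held longer Ntrk2 transcripts on average, at 8374 to 8409 bases over the 6 libraries, against 7092 to 7315 bases in ES cells; 2 Ntrk2 transcripts are listed.

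In EH, 5 of the 9 genes differed from wild-type motor neurons: Gfra1, Gfra3 and Ntrk3 were higher, and Nrtn and Ntrk2 were lower. Over all 15565 genes tested, 21.2% were called, 9.61% as higher and 11.6% as lower. The ligand Nrtn fell and the co-receptor of another ligand, Gfra3, rose by the largest amounts among the 9. The median difference of the 9 genes was -0.57 and that of all genes 0.00 on the log2 scale.

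Nrtn had 0.54 and 0.16 TPM in EH, on 11 and 3 expected counts, against 7.24 and 5.72 TPM in wild-type motor neurons, on 50 and 40 counts. The log2 fold change was -4.14 ± 0.49 (edgeR adjusted p = 0.00568). Both EH libraries lay below both ES cell libraries as well, and the low counts make the size of the fall imprecise. Gfra3 had 27.2 and 59.1 TPM in EH against 7.10 and 6.79 TPM in wild-type motor neurons, a log2 difference of 2.65 ± 0.38 (edgeR adjusted p = 0.00782). Its EH libraries did not overlap any other group but differed from each other in TPM more than those of any other group.

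Gfra1 had 9.80 and 14.8 TPM in EH against 4.05 and 4.68 TPM in wild-type motor neurons (1.39 ± 0.24, edgeR adjusted p = 0.0126). Ntrk2 had 1.58 and 1.59 TPM in EH against 3.47 and 3.46 TPM in wild-type motor neurons (-1.11 ± 0.19, edgeR adjusted p = 0.0111). Ntrk3 had 3.67 and 5.73 TPM in EH against 2.33 and 1.73 TPM in wild-type motor neurons (1.39 ± 0.32, edgeR adjusted p = 0.0254). For each of these 3 genes the groups did not overlap. The share of all genes whose groups did not overlap was not counted, here or in the other comparisons. Each of the 5 calls was lost without either wild-type library, which left 152 and 96 genes called in all; the fitted fold changes of the 5 genes kept their sign.

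Ret, Gfra2, Gdnf and Ngfr did not pass in EH. Ret had 74.7 and 109 TPM in EH against 135 and 138 TPM in wild-type motor neurons, without overlap (-0.57 ± 0.17, edgeR adjusted p = 0.0567); with DESeq2 it passed (adjusted p = 0.0124). Gfra2 had 0.36 and 0.34 TPM in EH against 0.57 and 1.01 TPM in wild-type motor neurons (-1.16 ± 0.39, edgeR adjusted p = 0.0772). Gdnf (-0.76 ± 0.36, edgeR adjusted p = 0.179) and Ngfr (0.34 ± 0.19, edgeR adjusted p = 0.257) lay nearer to their spread.

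Markers of other cells moved in EH as well. The summed TPM of 6 visceral and enteric neuron markers was 217 to 336 in EH against 69.3 to 86.0 in wild-type motor neurons, and 3 of the 6 rose while 1 fell. All 7 trophoblast markers tested fell in EH, and none of the 7 was at 0 in both libraries of a motor neuron group. Their part, and that of the greater depth of EH, in the differences of the 9 genes was not tested.

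In HD, none of the 9 genes passed the test against wild-type motor neurons, and 0.173% of all genes did (27 of 15565). The errors and p-values of this fit use a spread shared by all 6 motor neuron libraries, so the spread of the EH libraries enters them. At an unadjusted p under 0.05, edgeR gave 3 of the 9 and 5.6% of all genes, and DESeq2 called 0 of the 9 after adjustment. Gfra1 had 7.65 and 7.21 TPM in HD against 4.05 and 4.68 TPM in wild-type motor neurons, without overlap (0.65 ± 0.25, edgeR adjusted p = 0.811). In a fit of HD and wild type alone, the Gfra1 difference was 0.65 ± 0.14 and lay nearer to the threshold (edgeR adjusted p = 0.0677). That fit called 336 of 15182 genes. Ntrk3 had 3.87 and 3.22 TPM in HD against 2.33 and 1.73 TPM in wild-type motor neurons, again without overlap (0.90 ± 0.34, edgeR adjusted p = 0.786). Ntrk2 had 5.52 and 3.89 TPM in HD against 3.47 and 3.46 TPM in wild-type motor neurons (0.45 ± 0.19, edgeR adjusted p = 0.871).

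Ret was nearly the same in both groups, at 138 and 138 TPM in HD and 135 and 138 TPM in wild-type motor neurons (0.03 ± 0.17, edgeR adjusted p = 0.991). Nrtn had 4.18 and 4.22 TPM in HD, on 23 and 26 counts, against 7.24 and 5.72 TPM in wild-type motor neurons (-0.61 ± 0.41, edgeR adjusted p = 0.977). Gfra3 had 11.8 and 8.70 TPM in HD against 7.10 and 6.79 TPM in wild-type motor neurons (0.57 ± 0.39, edgeR adjusted p = 0.977). Neither Nrtn nor Gfra3 overlapped between the groups, and neither difference passed. Ntrk2, Gdnf and Ngfr did not overlap either, and none of them passed. The share of all genes without overlap between HD and wild type was not counted, so this lack of overlap is not read as a difference. For Ngfr the margin was narrow, with 131.68 TPM in the higher HD library and 131.86 TPM in the lower wild-type library.

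Ngfr had 132 and 107 TPM in HD against 190 and 132 TPM in wild-type motor neurons (-0.42 ± 0.20, edgeR adjusted p = 0.968). Gdnf had 0.79 and 0.46 TPM in HD against 1.04 and 0.81 TPM in wild-type motor neurons, on 11 to 28 counts (-0.56 ± 0.40, edgeR adjusted p = 0.977). Gfra2 had 0.66 and 0.85 TPM in HD against 0.57 and 1.01 TPM in wild-type motor neurons, so that its groups overlapped (-0.05 ± 0.41, edgeR adjusted p = 0.993).

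**Figure D2:**
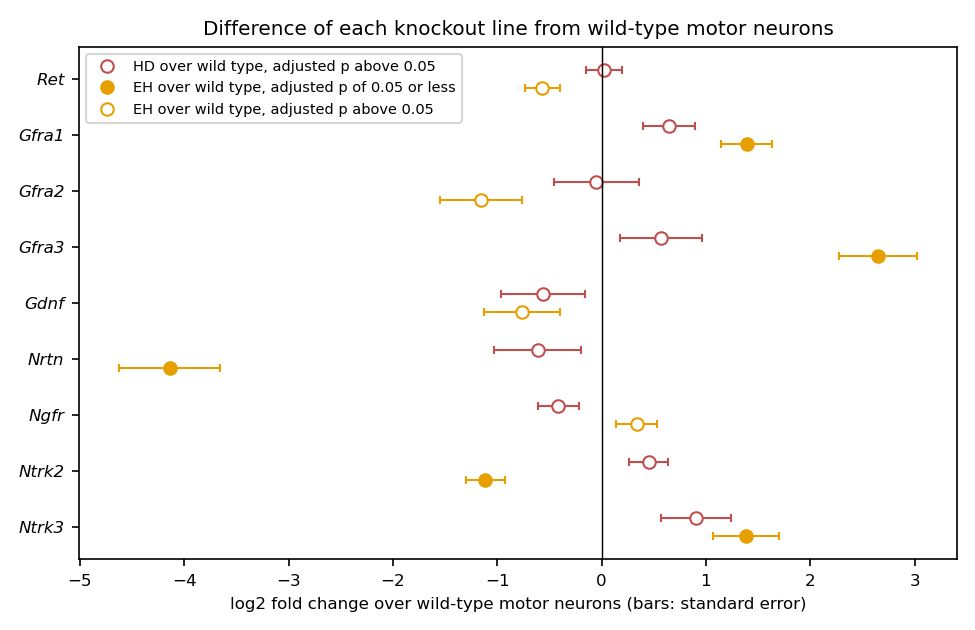
Log2 fold changes over wild-type motor neurons for HD (red) and EH (orange), with bars of 1 standard error, from the edgeR fit of 6 libraries. Filled points passed an adjusted p of 0.05, and all 5 of them are EH points; Nrtn lies furthest left at -4.14 and Gfra3 furthest right at 2.65.

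As the mean of HD and EH, the Mnx1KO lines differed from wild-type motor neurons in 1 of the 9 genes, with 0.816% of all genes called. That gene was Nrtn (-2.38 ± 0.37, edgeR adjusted p = 0.0497), and the call was lost without either HD or either wild-type library. Gfra3 (1.61 ± 0.35, edgeR adjusted p = 0.0802), Gfra1 (1.02 ± 0.22, edgeR adjusted p = 0.0822) and Ntrk3 (1.14 ± 0.29, edgeR adjusted p = 0.108) did not pass, while DESeq2 called these 3 and Nrtn. For Nrtn the mean joined a fitted difference of -4.14 in EH with -0.61 in HD, and the HD difference did not pass.

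HD differed from EH in 4 of the 9 genes, with 21.2% of all genes called, 11.8% as higher and 9.43% as lower in HD. Nrtn and Ntrk2 were higher in HD, and Gfra3 and Ngfr were lower in HD. Since both lines are set against the same wild-type libraries, this comparison tests whether their differences from wild type are unequal.

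Nrtn had 4.18 and 4.22 TPM in HD against 0.54 and 0.16 TPM in EH (3.53 ± 0.51, edgeR adjusted p = 0.00745). Ntrk2 had 5.52 and 3.89 TPM in HD against 1.58 and 1.59 TPM in EH (1.56 ± 0.19, edgeR adjusted p = 0.00482). Gfra3 had 11.8 and 8.70 TPM in HD against 27.2 and 59.1 TPM in EH (-2.08 ± 0.37, edgeR adjusted p = 0.0121). In all 3 genes the lines did not overlap.

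Ngfr had 132 and 107 TPM in HD against 176 and 224 TPM in EH, again without overlap (-0.75 ± 0.20, edgeR adjusted p = 0.0374). The calls of Gfra3 and Ngfr were lost without either HD library, and that of Nrtn without HD replicate 2. Ret (0.59 ± 0.17, edgeR adjusted p = 0.0503) and Gfra1 (-0.74 ± 0.24, edgeR adjusted p = 0.0677) lay just outside the threshold, and Gfra2, Gdnf and Ntrk3 had adjusted p-values of 0.0938, 0.747 and 0.288. The 8 motor neuron markers had 5 members lower in HD than in EH and none higher, where 9.43% of all genes were lower and 11.8% higher; their part in the difference of Ngfr was not tested.

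The makeup of the receptor set can be read from TPM, which is per length. The 3 GFR alpha genes together had 20.1 and 16.8 TPM in HD, 37.3 and 74.2 TPM in EH, 11.7 and 12.5 TPM in wild-type motor neurons, and 1.95 and 3.41 TPM in ES cells. Gfra3 made up 58.7% and 51.9% of that sum in HD, 72.8% and 79.6% in EH, 60.6% and 54.4% in wild-type motor neurons, and 12.8% and 6.7% in ES cells. Gfra3 was thus the most abundant of these 3 RNAs in each motor neuron library, and Gfra1 was so in both ES cell libraries, at 68.2% and 88.3%.

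The ratio of Ret to the summed co-receptors stood at 6.85 and 8.26 for HD, 2.00 and 1.46 for EH, and 11.5 and 11.1 in wild-type motor neurons. Neither line overlapped wild type in this ratio. Ntrk2 made up 58.8% and 54.7% of the Ntrk2 and Ntrk3 sum in HD, 30.1% and 21.7% in EH, and 59.8% and 66.7% in wild-type motor neurons. Ntrk3 was therefore the larger of the pair in EH, and Ntrk2 in HD and in wild-type motor neurons.

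**Figure D3:**
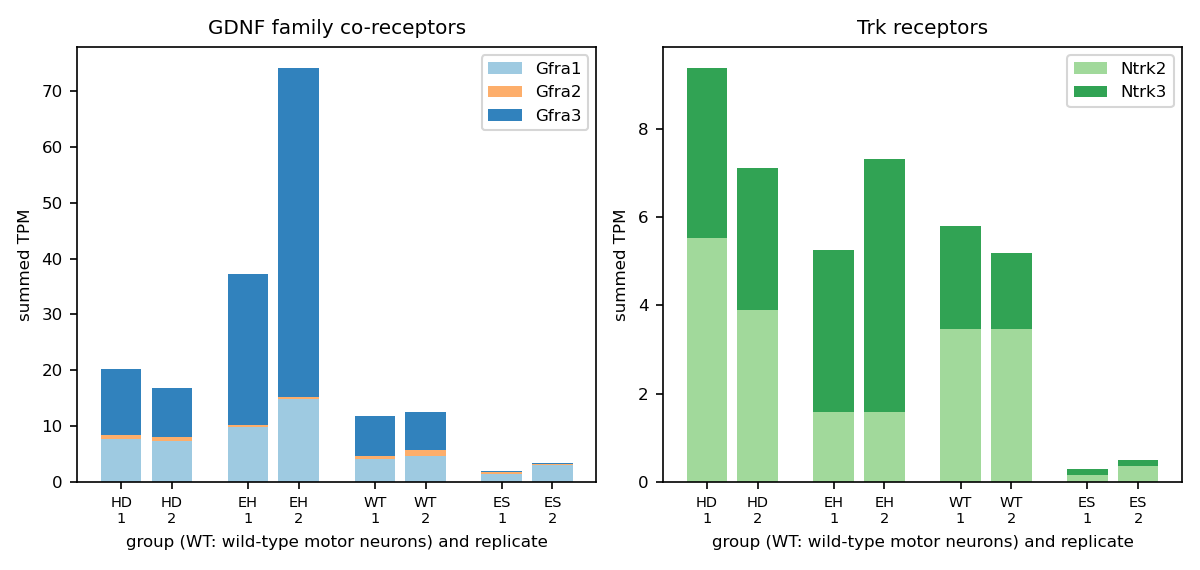
Summed TPM of the GFR alpha co-receptors (left) and of Ntrk2 and Ntrk3 (right), stacked by gene, 1 bar per library, for HD, EH, wild-type motor neurons and ES cells. The EH libraries have the tallest co-receptor bars, at 37.3 and 74.2 TPM, and Gfra3 fills most of them.

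Other genes of the same pathways were read as lists, each count beside the share of all genes called: 0.173% in HD and 21.2% in EH (9.61% higher, 11.6% lower), both against wild-type motor neurons. The genes named are among those with the smallest adjusted p of each list, and each EH call named against wild type was lost without either wild-type library. Among other GDNF family ligands and co-receptors, 4 were tested: none passed in HD against wild type, and 1 was higher in EH. With only 4 genes, this count is too small to set against the 9.61% of all genes called higher. The gene higher in EH was Gas1, a GFR alpha-related membrane protein, at a mean of 43.1 TPM in EH against 32.1 TPM in wild-type motor neurons (0.45 ± 0.12, edgeR adjusted p = 0.0377). This Gas1 call was lost in 7 of 12 alternatives, among them limma, the replicate block and the fit of the 2 groups alone. The median difference of the list was 0.30 in HD and 0.09 in EH, beside -0.01 in HD and 0.00 in EH for all genes. Against EH, HD had less Gas1 (-0.85 ± 0.12, edgeR adjusted p = 0.00703) and more Sdc3, syndecan-3, a heparan sulphate proteoglycan that binds GDNF (0.65 ± 0.13, edgeR adjusted p = 0.0168); both calls were lost without HD replicate 2, and that of Sdc3 also without HD replicate 1.

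Of 12 other neurotrophin genes tested, 1 was higher in HD than in wild type, and 2 were lower in EH. Sorcs3, a sortilin-family receptor, had a mean of 29.4 TPM in HD against 5.96 TPM in wild-type motor neurons (2.31 ± 0.27, edgeR adjusted p = 0.0482). This call was lost without either HD library, without either wild-type library, with the replicate number as a block and with DESeq2's size factors, so in 6 of 12 alternatives. Sorcs1, another sortilin-family receptor, had a mean of 1.64 TPM in EH against 3.05 TPM in wild-type motor neurons (-1.06 ± 0.18, edgeR adjusted p = 0.0125). Ntf3, which codes for NT-3, the ligand of Ntrk3, had a mean of 42.2 TPM in HD against 83.2 TPM in EH (-0.97 ± 0.17, edgeR adjusted p = 0.0121), a call lost without either HD library.

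Of 9 CNTF and LIF family genes tested, none passed in HD against wild type. Of 19 other trophic factors and receptors, none passed in HD, and in EH 2 were higher and 5 were lower, against 9.61% of all genes higher and 11.6% lower. Vegfa, the vascular growth factor, had a mean of 12.7 TPM in EH against 29.7 TPM in wild-type motor neurons (-1.35 ± 0.16, edgeR adjusted p = 0.0059). Erbb4, a neuregulin receptor, had a mean of 3.55 TPM in HD against 0.27 TPM in EH (3.67 ± 0.34, edgeR adjusted p = 0.00252).

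Of 27 adaptor and signalling genes of Ret and Trk, none passed in HD, and in EH 2 were higher and 4 were lower, a count near the 21.2% of all genes called. Grb10, an adaptor that binds receptor tyrosine kinases, had a mean of 20.04 TPM in EH against 63.2 TPM in wild-type motor neurons (-1.68 ± 0.32, edgeR adjusted p = 0.0149). Sh2b2 (-0.84 ± 0.11, edgeR adjusted p = 0.00716) and Dok4 (-0.64 ± 0.13, edgeR adjusted p = 0.017), both adaptors of receptor kinases, also fell in EH. Spry2, a feedback inhibitor of receptor kinase signalling, rose in EH (0.96 ± 0.15, edgeR adjusted p = 0.0103). Against ES cells, wild-type motor neurons had 13 genes of this list higher and 10 lower, where 38.8% of all genes were higher and 36.5% lower.

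Likeness of pattern was measured over the 6 motor neuron libraries as the root mean square difference of log2 CPM (library-scaled counts), each gene centred on its wild-type mean, among 13107 genes. The nearest genes to Nrtn were Fxyd7 at 0.19 and Zim1 at 0.32, where the median gene lay at 2.21. To Gfra3 they were Thsd7b at 0.22 and P2rx3 at 0.23 (median 1.54), and to Gfra1 Hs3st3b1 at 0.08 and Cldn3 at 0.10 (median 0.91). To Ntrk2 they were Ncam2 at 0.10 and Ly6h at 0.13 (median 0.73), to Ntrk3 Scml4 at 0.13 and Crp at 0.17 (median 0.99), and to Ngfr Dnah1 and Slc5a7 at 0.09 each (median 0.42). These distances describe the libraries at hand, and genes are not independent replicates.

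The histone marks were read as regions in the authors' lists, each with the authors' fold enrichment. H3K4me3 marks promoters, H3K27ac active promoters and enhancers, and H3K27me3 is deposited by Polycomb at repressed or poised genes. All 9 genes had an H3K4me3 region within 2 kb of a gene end in HD and in wild-type motor neurons, which 63.4% of 21887 coding genes had in HD and 64.3% in wild-type motor neurons. An H3K27me3 region lay there at 8 of 9 genes in HD and at 9 of 9 in wild-type motor neurons, against 15.4% of coding genes in HD and 21.6% in wild-type motor neurons. With 1 list per genotype these differences have no replicate check. In the H3K27ac list labelled wild type the peak names carry the letters KO; the label was followed, and the H3K27ac differences between HD and wild type rest on it.

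The H3K4me3 region overlapped H3K27me3 at 8 of the 9 genes in HD and at all 9 in wild-type motor neurons, against 14.7% of coding genes in HD and 20.4% in wild-type motor neurons. Ret and Ngfr, with the highest RNA levels, were among them and also carried H3K27ac at the same end, so that end bore all 3 marks in bulk chromatin. Gfra3 was the gene without an H3K27me3 region in HD; its wild-type region was 690 bases long with a fold of 2.77 and a -log10 q of 1.93. Of the coding genes with an H3K27me3 region at an end in wild-type motor neurons, 70.7% also had one in HD.

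Within 50 kb, 8 of the 9 genes had H3K27me3 in HD and 9 in wild-type motor neurons, against 36.6% of coding genes in HD and 47.9% in wild-type motor neurons. There were 8 such regions in HD and 17 in wild-type motor neurons, covering 32.0 kb in HD and 52.0 kb in wild-type motor neurons. All 8 HD regions overlapped a wild-type region, and 8 of the 17 wild-type regions overlapped an HD region. The whole HD list is also shorter, with 5729 regions over 12.9 Mb against 9365 regions over 20.3 Mb in wild-type motor neurons, and 51.0% of all wild-type regions overlapped an HD region. The smaller number around these genes is thus near the share in the whole list.

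At Gfra2 and Nrtn the region was of similar width in the 2 lists. At Gfra2, the H3K27me3 region was 6242 bases long in HD and 6306 bases in wild-type motor neurons. At Nrtn it spanned the whole gene, over chr17:56751110-56758116 in HD (fold 6.59) and chr17:56751012-56758195 in wild-type motor neurons (fold 12.38). No H3K27ac region lay within 50 kb of Gfra2 or Gdnf in either list, and the nearest one to the Nrtn start was centred 5.06 kb away in HD and 4.90 kb in wild-type motor neurons.

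Over the whole lists, the median H3K27me3 region was 1426 bases long in HD and 1254 bases in wild-type motor neurons. Widths of regions shared by the lists were not compared over all genes. At the genes other than Gfra2 and Nrtn with a region in both lists, that region was shorter in HD. It was 1343 bases in HD against 3669 bases in wild-type motor neurons at Ret, 1355 bases in HD against 3692 bases in wild-type motor neurons at Gfra1, and 2021 bases in HD against 5555 bases in wild-type motor neurons at Ntrk2. At Ngfr the HD list had 1 region of 1086 bases, and the wild-type list had 6 regions, the longest of 3724 bases. At Ntrk3 the main region was 4706 bases in HD and 5704 bases in wild-type motor neurons, and at Gdnf 8311 bases in HD and 9998 bases in wild-type motor neurons. The promoter windows printed above were covered in full by H3K27me3 in wild-type motor neurons at all 4 genes; in HD the Nrtn window was covered and those of Ntrk2, Gfra1 and Ngfr were not.

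**Figure D4:**
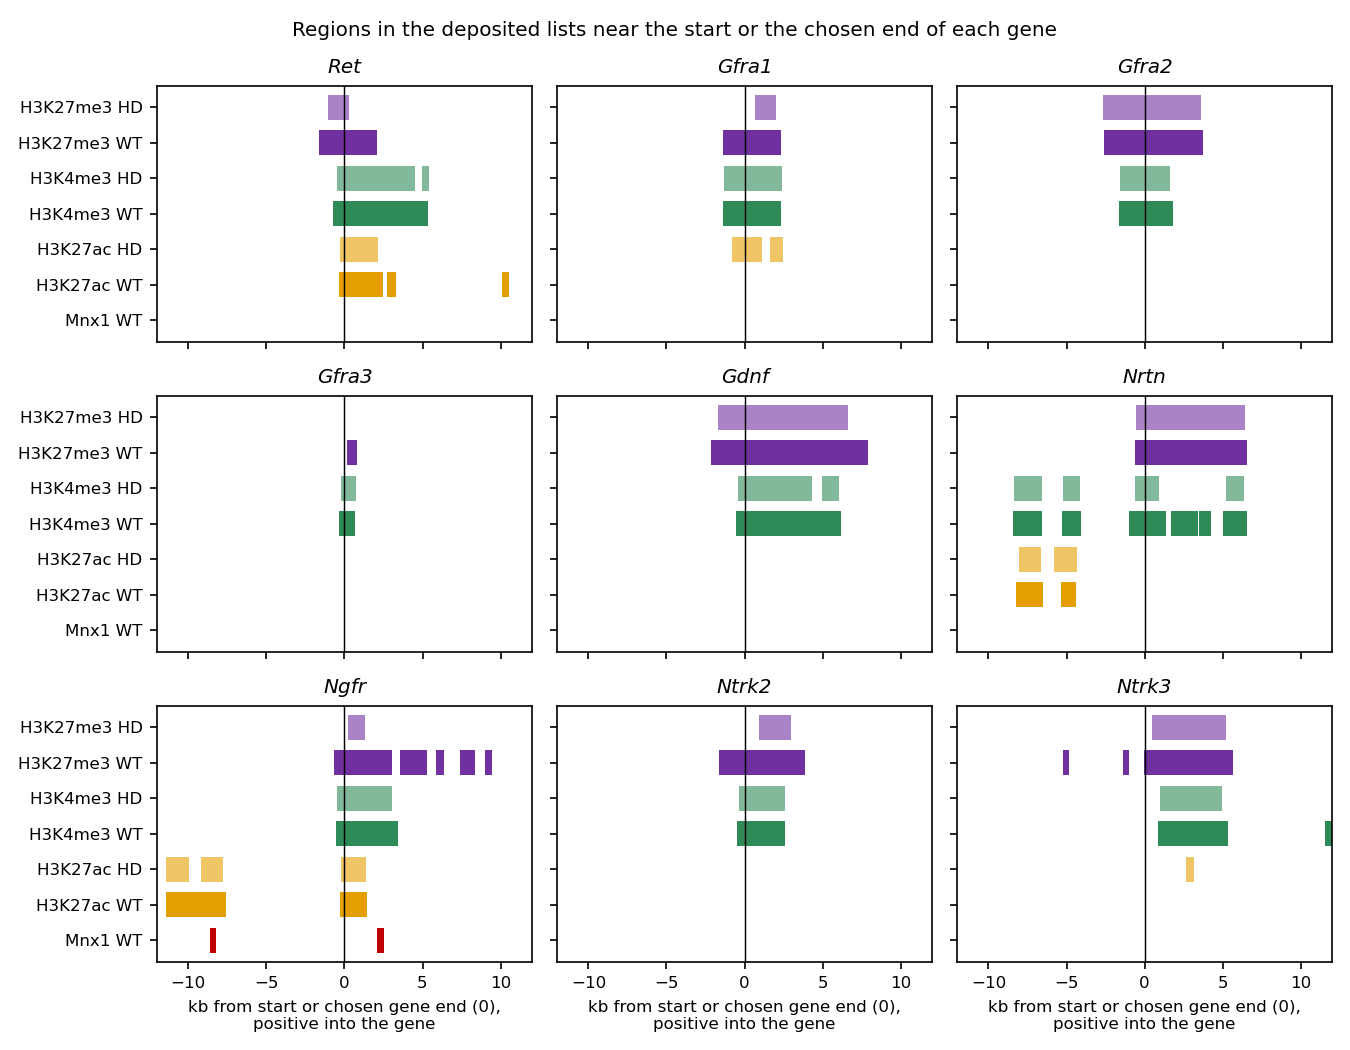
Regions of H3K27me3, H3K4me3, H3K27ac and Mnx1 in the authors' lists by distance from each gene's start (kb, positive into the gene), HD above wild type (WT). For Ret, Gfra2, Gfra3 and Ntrk3, whose strand was not at hand, 0 is the end with the strongest wild-type H3K4me3 region; H3K27me3 is shorter in HD at Ret, Gfra1, Ngfr and Ntrk2, and Gfra1 has H3K27ac at the start in HD alone.

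H3K27ac lay within 2 kb of an end at 3 of the 9 genes in HD (Ret, Gfra1 and Ngfr) and at 2 in wild-type motor neurons (Ret and Ngfr), against 46.5% of coding genes in HD and 45.4% in wild-type motor neurons. At Gfra1, regions at chr19:58454249-58456182 (fold 2.32) and chr19:58452958-58453744 (fold 1.91) stood in the HD list with no overlapping region in the wild-type list. Gfra1 had 6 H3K27ac regions within 50 kb in HD and 3 in wild-type motor neurons, and its RNA difference between these groups did not pass the test. At Ret, the region at that end was 2412 bases in HD (fold 4.98) and 2843 bases in wild-type motor neurons (fold 5.42).

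Within 50 kb, 7 of the 9 genes had H3K27ac in HD and 6 in wild-type motor neurons, against 71.2% of coding genes in HD and 69.7% in wild-type motor neurons. In all, 18 of 24 HD regions overlapped a wild-type region, and 17 of 22 wild-type regions overlapped an HD region. Over the whole lists these shares were 80.0% of HD regions and 87.2% of wild-type regions. Ntrk3 had 1 region, in HD alone, and the single HD region at Ntrk2 overlapped neither of the 2 wild-type ones.

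H3K9me3, a mark of heterochromatin, lay within 2 kb of an end at Gdnf and Nrtn in HD and at Gfra1, Gfra2, Gdnf, Nrtn and Ntrk3 in wild-type motor neurons, so at 2 of 9 genes in HD and 5 of 9 in wild-type motor neurons. Of coding genes, 8.43% had it in HD and 12.4% in wild-type motor neurons. H3K9me3 came from a single library per genotype, unlike the other marks. Within 50 kb, 8 of the 9 genes had H3K9me3 in HD and 8 in wild-type motor neurons, against 47.2% of coding genes in HD and 58.7% in wild-type motor neurons. With regions of a -log10 q of 5 or more, Nrtn and Ntrk3 had H3K9me3 within 50 kb in wild-type motor neurons (11.2% of coding genes), and none of the 9 had it in HD (6.08% of coding genes). H3K4me1, found at enhancers, was within 50 kb of all 9 genes in both lists, against 80.8% of coding genes in HD and 82.0% in wild-type motor neurons.

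**Figure D5:**
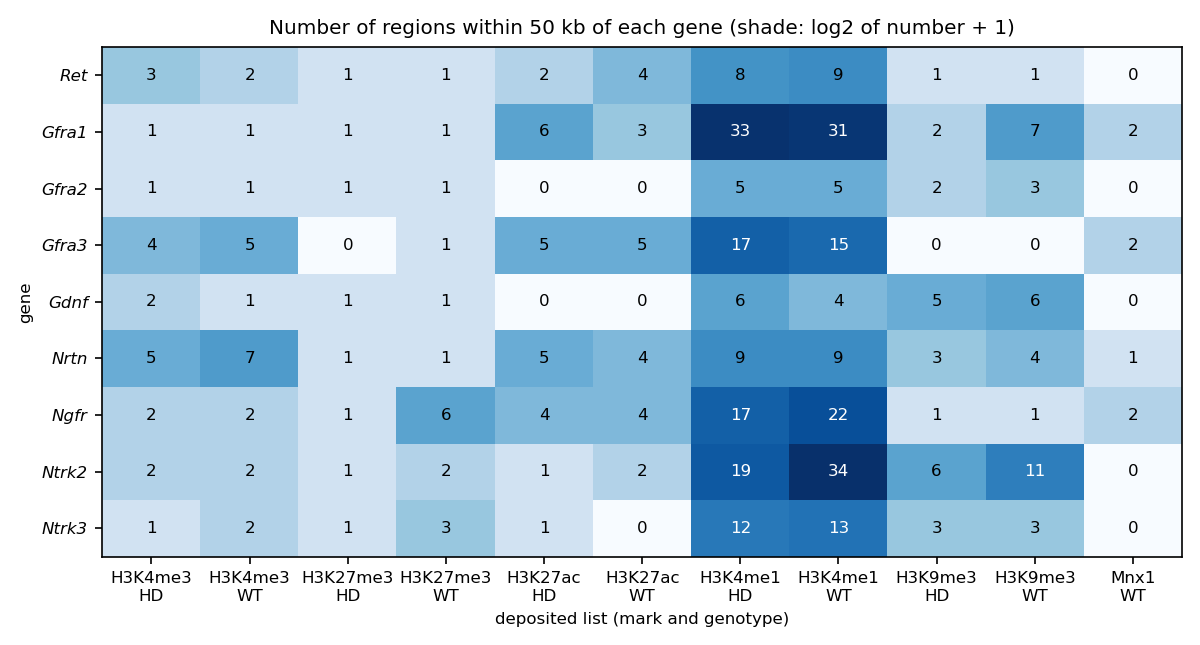
Number of regions within 50 kb of each gene in each list, by mark and genotype (HD left of wild type, WT), with the shade on a log2 scale. Mnx1 regions are at Gfra1, Gfra3, Nrtn and Ngfr, and H3K27me3 is in each wild-type cell of the 9 genes.

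No Mnx1 region lay within 2 kb of an end of any of the 9 genes, where 14.2% of coding genes had one. The region inside Ngfr lay just beyond this limit, 2.05 kb from an end of the gene. Within 50 kb, 4 of the 9 genes had 7 Mnx1 regions in all, against 38.3% of coding genes with at least 1. The 4 genes were Gfra1, Gfra3, Nrtn and Ngfr. Wild-type motor neurons gave this list, and among the antibodies that the labels name, 1 is to GFP but none is to Mnx1.

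At Gfra1, 1 region lay inside the gene at chr19:58320681-58321241 (fold 4.16), and another at chr19:58220305-58220728 (fold 4.09), 14.9 kb beyond the end of the gene. Both lay over H3K4me1 regions of HD and wild type and over no H3K27ac region. At Ngfr, 1 region lay inside the gene at chr11:95585196-95585644 (fold 3.64), centred 2.32 kb from the start, over H3K4me3 in both lists and over H3K27me3 in the wild-type list alone. The other, at chr11:95595903-95596308 (fold 2.59), was 8.44 kb upstream and over H3K27ac in both lists.

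At Gfra3, the region with the highest fold of the 7, 4.60, lay 9.71 kb from an end of the gene and over H3K27ac in HD and in wild-type motor neurons. The second Gfra3 region (fold 3.07) touched the end of Cdc25c, and the Nrtn region at chr17:56716951-56717421 (fold 3.08) lay 0.28 kb from an end of Vmac and 40.4 kb from the Nrtn start. These 2 regions are thus nearer to other coding genes than to the trophic genes. Of the 5 genes that differed in EH, Gfra1, Gfra3 and Nrtn had Mnx1 regions within 50 kb and Ntrk2 and Ntrk3 had none. Of the other 4, Ngfr had them. Among all coding genes the share was 38.3%, and a link between these regions and the RNA differences was not tested.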

How the data were processed

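The 8 RNA libraries were put in groups by their labels. They were stranded TruSeq libraries of poly(A)-selected RNA, per the labels. The tools named, per the submitters' processing notes, include STAR, RSEM, Bowtie2 and MACS2, with the mm10 build; versions and roles are not given in the sources used here. The deposited RNA tables give an expected count and TPM per gene, per the file headers. The authors' peak lists give for each peak a fold enrichment ratio and a -log10 q. H3K9me3 had a single library per genotype. For the other lists, how replicates were combined is not given in the sources used here, so ChIP-seq gave no replicate spread. In the list labelled wild-type H3K27ac the peaks are named KO, and the label was followed.

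After rounding, expected counts went into edgeR 4.0.16 in R 4.3.3 (quasi-likelihood test, TMM scaling and filterByExpr), at a Benjamini-Hochberg adjusted p of 0.05 over all genes tested. The 6 motor neuron libraries shared 1 fit (3 residual degrees of freedom), and the comparison with ES cells used all 8 libraries (4 degrees of freedom). All 9 genes passed the low-count filter in both fits. A standard error is the size of the log2 difference over the root of F. Alternatives used DESeq2 1.42.0, limma 3.58.1, other scaling, no filter, a replicate block and each library left out. In no group did the 2 libraries agree within counting noise.

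A region counted for a gene if it overlapped the gene or 50 kb on either side by 1 bp or more. Coordinates are RefSeq GRCm38.p6, the same build as mm10; strand was known only for genes with a promoter entry, so either end stood for the start elsewhere. The code was tested on simulated data. All 9 genes are named, and of each pathway list up to 4 genes by smallest adjusted p. Some genes of the neurotrophin and CNTF lists that this rule names, with their counts in EH, are not reported here. The genes and lists were chosen with earlier results of these data known. Genes overlapping Gfra1, Gfra2, Gfra3, Ntrk2 and Ntrk3 are annotated, and reads they share could be counted for either.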

Additional observations from a re-analysis of the deposited data

Results flagged for a closer look

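For 4 of the 9 genes the difference of HD from wild-type motor neurons was unequal to that of EH, tested as HD against EH in the edgeR fit. The log2 difference was 3.53 for Nrtn (4.18 and 4.22 TPM in HD, 0.54 and 0.16 TPM in EH) and 1.56 for Ntrk2 (5.52 and 3.89 TPM in HD, 1.58 and 1.59 TPM in EH). It was -2.08 for Gfra3 (11.8 and 8.70 TPM in HD, 27.2 and 59.1 TPM in EH) and -0.75 for Ngfr (132 and 107 TPM in HD, 176 and 224 TPM in EH). Each was higher or lower in 2 of 2 HD libraries than in both EH libraries. Both lines carry the label Mnx1KO, and the labels give no further difference between them. The groups also differed in depth, at 11.2 and 12.4 M counts in HD and 39.8 and 39.7 M in EH. The 7 trophoblast markers summed to 487 to 648 TPM in HD and 31.2 to 106 TPM in EH. The part of either in the 4 differences was not tested. As given above, the calls of Gfra3, Ngfr and Nrtn did not all hold when an HD library was left out.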

How the results depend on the processing

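Counts below are of the 9 genes that passed. HD against wild-type motor neurons gave 0 under every alternative run. EH against wild type gave 5, and 4 to 6 under every alternative except leaving out a library, which gave 0 to 6: 0 without either wild-type library, though 8 and 5 of the 9 kept an unadjusted p under 0.05, beside 24.8% and 23.7% of all genes in those fits. The mean of both lines gave 1, against 4 with DESeq2, 4 without the low-count filter, 0 with the replicate block and 0 to 5 when a library was left out. HD against EH gave 4, and 1 to 7 when a library was left out (1 without HD replicate 2, 2 without HD replicate 1, 7 without EH replicate 1). Wild-type motor neurons against ES cells gave 6, and 6 to 9 under the alternatives.

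Leaving out a library turned the sign of 4 small differences: Ret in HD against wild type (-0.009 to 0.063), Gfra2 in the same comparison (-0.42 to 0.45), Ngfr in both lines (-0.26 to 0.22) and Gdnf in HD against EH (-0.23 to 0.55). In the single-gene results, 483 alternatives gave the same call and direction, 32 gained a call, 26 lost one and 8 turned sign. The cause was not tested.

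Replicate numbers are shared by the groups, but the labels do not say that they pair libraries, and the deviations of same-numbered libraries correlated at -0.14 (HD and EH), 0.10 (HD and wild type) and -0.11 (EH and wild type). With the number as a block, Ntrk3 in EH (adjusted p = 0.0612), Nrtn in both lines (0.116) and Ngfr in HD against EH (0.0702) lost their calls, and Gfra1 against ES cells gained one (0.0453). Over all genes the block gave 0 calls in HD in place of 27, 2080 in EH in place of 3301, 5 in both lines in place of 127 and 2154 in HD against EH in place of 3303. Each of these p-values is from edgeR.

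Over all genes, HD against wild type gave 182 calls with DESeq2, 142 without the filter and 336 in a fit of the 2 groups alone, and both lines gave 995 with DESeq2 and 953 without the filter. EH against wild type and HD against EH gave 2121 and 2014 in fits of 2 groups. Counts of the 9 genes with a region within 50 kb moved by no more than 1.5 times at windows of 10 and 100 kb. At a -log10 q of 5 or more, H3K9me3 went to 0 genes in HD and 2 in wild-type motor neurons, in place of 8 each, and H3K27ac to 4 in wild-type motor neurons, in place of 6; the other marks moved by less than 1.5 times. The number of genes highest in EH was 4 by TPM and by CPM. Gfra2, Gdnf and Nrtn rest on 3 to 50 expected counts per motor neuron library, which limits their precision.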
